A study of Mus musculus with 8 samples.

Results

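The transcripts described here encode 9 families of proteins that write, remove, read or remodel chromatin. The members were the genes whose symbol begins with Kdm, Setd, Brd, Baz, Hdac, Smarc or Phf, or with Chd or Ing followed by a digit, and which held at least 1 N6-methyladenosine (m6A) peak on their own strand in any of the 4 immunoprecipitated lists. The rule found 52 genes with 296 peaks, of 4311 genes and 20732 peaks in all. The cells were RAW264.7, a mouse macrophage line grown in culture. One sample was an untreated control, and each of the others was exposed for 24 h to 100 µM of TBP, TCP or TIP, abbreviations that the labels do not spell out. RNA bound by an m6A antibody was sequenced in 1 library per condition, and the 4 matching RNA input libraries were not analysed here. No condition has a replicate, so no test between conditions was made, and every 95% interval (exact Clopper-Pearson) covers counting error only. The comparison of each treated sample with the control addresses which transcripts carry m6A after exposure.

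m6A is a methyl mark placed on adenosines of messenger RNA by a nuclear methyltransferase complex while transcripts are made. It is known for lying in long exons, near stop codons and in 3′ UTRs, and for affecting the decay, splicing and translation of the transcripts that carry it. The proteins described here act on chromatin. Demethylases (Kdm) remove methyl groups from histone lysines, SET domain proteins (Setd) add them, and deacetylases (Hdac) remove acetyl groups. Bromodomain proteins (Brd and Baz) and PHD finger proteins (Phf and Ing) bind modified histones. The ATP-driven remodellers (Chd, and the Smarc proteins, many of them subunits of SWI/SNF complexes) move or evict nucleosomes. In macrophages chromatin proteins of these kinds help to set which inflammatory genes can be switched on.

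The control list held 4432 peaks, TBP 6285, TCP 6981 and TIP 3034, so the number of members with a peak has to be read beside list length. Read counts are not part of the lists, which leaves the depth of each library unknown, and absence from a list says no more than that the caller reported nothing. A peak needs both transcript and mark, and as the inputs were not used, transcript level and methylation cannot be told apart, nor can fewer cells be told apart from less RNA per cell. Of 11 macrophage marker genes, 7 held a peak in some list. Csf1r, Cd14 and Mpeg1 held peaks in all 4 lists, and Cd68 and Lyz2 in control and TBP only. Adgre1, Itgam, Mrc1 and Msr1 held none. None of 17 marker genes of lymphocytes, fibroblasts, epithelium or endothelium held a peak. Positions are on GRCm38 (mm10), and exon numbers are those of the transcript that the lists name for each peak.

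Of the 103 RefSeq protein-coding genes whose symbols fit the rule, 52 held a peak, or 50.5% (40.5 to 60.5), against 19.3% of all 21896 protein-coding genes. How many of these genes the cells express was not measured here. The share was also counted by family, and differences between families were not tested. All 4 Baz genes held a peak, as did 7 of 10 Chd genes, 7 of 10 Setd genes, 12 of 18 Kdm genes, 6 of 10 Brd genes and 3 of 5 Ing genes. The Phf family had 8 of 22, the Smarc family 4 of 13 and the deacetylases 1 of 11. The families are small and their intervals wide, from 39.8% to 100% for Baz, 41.0% to 86.7% for Kdm and 0.23% to 41.3% for the deacetylases. The intervals of all families overlapped. Among the Smarc genes without a peak were Smarca4, Smarca2, Smarca5 and Smarcb1, which encode the ATPases and a core subunit of SWI/SNF and ISWI remodellers. Hdac2 had 1 peak, in TCP alone, and the other 10 deacetylase genes had none in any list. The genes of the H3K27 demethylases Kdm6a and Kdm6b also had none.

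Peaks were unevenly spread over the members. The median member had 4.5 peaks over the 4 lists, 13 members had a single peak, and Setd2, Baz1b, Phf3 and Setd5 together held 79 of the 296 peaks (26.7%). The map of peaks per gene shows these genes as the darkest rows.

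**Figure D1:**
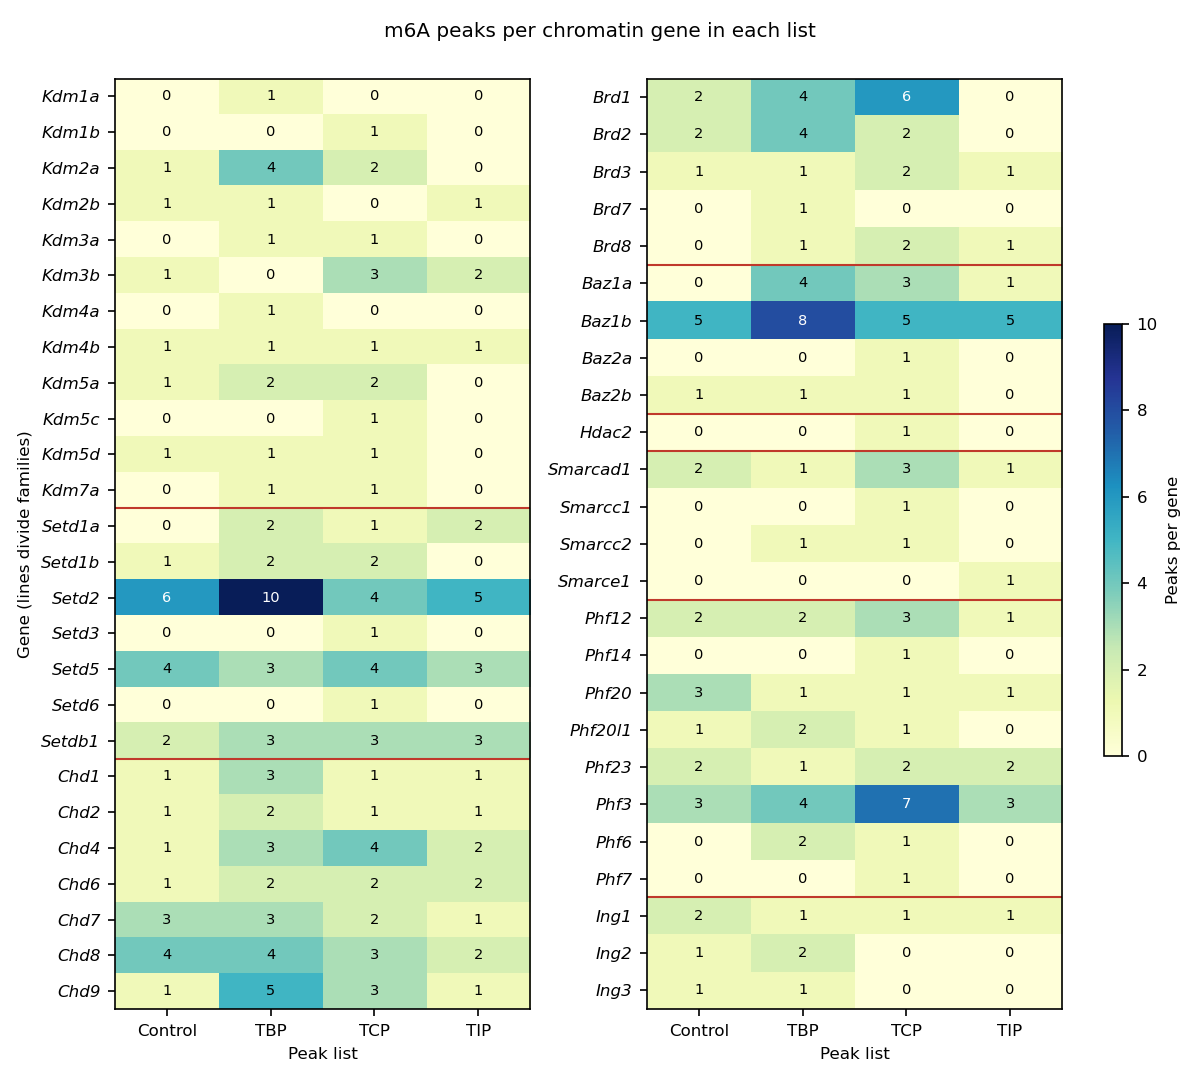
Number of m6A peaks (colour and printed number) in the chromatin genes reported by name (rows, divided by family) in the control, TBP, TCP and TIP lists (columns, 1 library each). Setd2 has 6, 10, 4 and 5 peaks, all 7 Chd genes have a peak in every list, and Hdac2 has its only peak in TCP.

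The control list marked 31 of the 52 members, 59.6% (45.1 to 73.0). The TBP list marked 41, 78.8% (65.3 to 88.9), the TCP list 45, 86.5% (74.2 to 94.4), and the TIP list 25, 48.1% (34.0 to 62.4). The other 4259 genes gave 57.4%, 72.5%, 78.7% and 41.4% in the same order, inside the members' interval in each list. The members followed the order of list length. The control list had 59 peaks in members, TBP 99, TCP 93 and TIP 45, ratios to control of 1.68, 1.58 and 0.763, where the other genes gave 1.41, 1.58 and 0.685. When each list was reduced to its 3034 best-scored peaks, control marked 23 members, TBP 27, TCP 28 and TIP 25. TIP then lay above control in members and in their peaks (45 against 41), the reverse of the full lists. Over all 2869 genes left at that length the shares were 65.5% for control, 64.9% for TBP, 65.0% for TCP and 62.4% for TIP, so that TIP stayed below control.

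**Figure D2:**
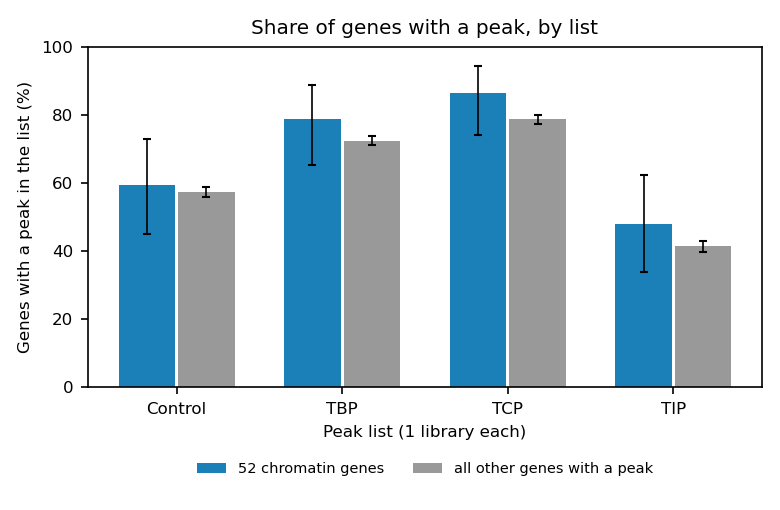
Share of genes (%) with a peak in each list, for the 52 chromatin genes and for all other genes with a peak in any list; bars are shares and lines are exact 95% intervals over genes. The chromatin genes stand at 59.6%, 78.8%, 86.5% and 48.1%, and each of their intervals includes the share of the other genes.

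Genes marked with a compound but unmarked in control are termed gained, and those marked in control but not with the compound lost. The 3 comparisons use the same control library. With TBP, 11 members were gained and 1 was lost, 21.2% and 1.92% of the 52, where 25.0% and 9.93% of all 4311 genes were called so. With TCP, 17 members were gained and 3 lost, 32.7% and 5.77%, against 30.6% and 9.26% of all genes. With TIP, 4 were gained and 10 lost, 7.69% and 19.2%, against 7.65% and 23.6%. Each of these 6 shares of all genes lies inside the interval around the members' share. On this base the members' calls sat near the background. Only genes marked in control can be lost. Of 31 such members, TBP lost 3.23% (0.0816 to 16.7), against 17.3% of all such genes, just outside the interval. That share rests on 1 member. TCP lost 9.68% (2.04 to 25.8), against 16.1%, and TIP 32.3% (16.7 to 51.4), against 41.1%, both inside. At equal list length, where 37 members are left, 6 were gained with TBP (16.2%, against 17.0% of all genes left), 9 with TCP (24.3%, against 17.7%) and 6 with TIP (16.2%, against 16.5%). Those lost were 2 (5.41%, against 17.6%), 4 (10.8%, against 18.3%) and 4 (10.8%, against 19.6%), and the shares of all genes again lie inside the members' intervals.

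Dose and exposure time were equal for the 3 compounds. TBP and TCP marked 35 members in common, 85.4% of the TBP members and 77.8% of the TCP members. TIP shared 23 members with TBP and 23 with TCP, 92.0% of its own 25 in each case, and 56.1% and 51.1% of theirs. Over all genes, TBP and TCP shared 78.8% of the TBP genes and 72.5% of the TCP genes. TIP shared 85.9% of its genes with TBP and 89.3% with TCP, which were 49.1% and 47.1% of theirs. Differences between the compounds were not tested, since each is 1 library.

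A group of 19 members had a peak in all 4 lists (36.5%, against 29.7% of all genes): Kdm4b, Setd2, Setd5, Setdb1, Chd1, Chd2, Chd4, Chd6, Chd7, Chd8, Chd9, Brd3, Baz1b, Smarcad1, Phf12, Phf20, Phf23, Phf3 and Ing1. A further 8 had a peak in every list but TIP (15.4%, against 13.0% of all genes): Kdm2a, Kdm5a, Kdm5d, Setd1b, Brd1, Brd2, Baz2b and Phf20l1. Setd1a, Brd8 and Baz1a had a peak with each of the 3 compounds and none in control (5.77%, against 3.55% of all genes). None of the members had a peak in control alone, a pattern that 162 of the 4311 genes (3.76%) showed. Members marked in a single list were 3 in TBP (Kdm1a, Kdm4a and Brd7), 9 in TCP and 1 in TIP (Smarce1). They made up 5.77%, 17.3% and 1.92% of the members, against 9.7%, 14.3% and 1.37% of all genes.

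In what follows, 4 numbers given together are a gene's peaks in the control, TBP, TCP and TIP lists, in that order. The histone demethylases carried few peaks each. Only Kdm4b, an H3K9 and H3K36 demethylase, had a peak in all 4 lists, with 1 in each. These 4 peaks made up 1 site in its 3′ UTR at chromosome 17, 56402401 to 56402525, plus strand. The TCP peak spanned the site, and the TIP peak adjoined those of control and TBP without overlapping them. Kdm2a, an H3K36 demethylase that binds unmethylated CpG DNA, had 1, 4, 2 and 0 peaks. Its control peak recurred in TBP and TCP (3′ UTR, chromosome 19, 4319069 to 4319143), and both compounds added a peak in the 5′ UTR, at positions that adjoin without overlapping. The paralog Kdm2b had 1, 1, 0 and 1, at a single 3′ UTR site on chromosome 5, 122871615 to 122871689.

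Kdm3b, an H3K9 demethylase, was the member lost with TBP, with 1, 0, 3 and 2 peaks. That call ended by the nearest-gene column, where TBP had 1 Kdm3b peak, and with the median score or equal list length, where control had 0. Its paralog Kdm3a showed 0, 1, 1 and 0, the TBP and TCP peaks overlapping in exon 11 of 27 (chromosome 6, 71611710 to 71611784). Among the H3K4 demethylases, Kdm5a had 1, 2, 2 and 0 peaks, all 5 in exon 27 of 28, the last but one. The Y-linked Kdm5d had 1, 1, 1 and 0, all in the 3′ UTR. Its X-linked counterpart Kdm5c had a single TCP peak. Kdm7a, an H3K9 and H3K27 demethylase, had 0, 1, 1 and 0. The flavin-dependent H3K4 demethylases were marked once each, Kdm1a in TBP and Kdm1b in TCP, and Kdm4a, a paralog of Kdm4b, once in TBP. The whole family had 4 TIP peaks in 3 genes (Kdm2b, Kdm3b and Kdm4b), against 6 in 6 genes in control and 13 in 9 genes in both TBP and TCP. The TIP peak of Kdm2b lay on its control peak, that of Kdm4b adjoined the control peak, and both of Kdm3b lay elsewhere.

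The SET domain family held the most heavily marked transcript. Setd2, the methyltransferase that trimethylates H3K36 behind elongating RNA polymerase II, had 6, 10, 4 and 5 peaks. Of its 25 peaks, 20 lay in exon 3 of 21, over 3875 bp (chromosome 9, 110547437 to 110551311, plus strand). Within that exon 3 sites were called in all 4 lists, at 110548537 to 110548711, 110548862 to 110548986 and 110551112 to 110551311. TBP had 8 peaks there, against 5 in control, 3 in TCP and 4 in TIP, so most of its surplus lay in the same exon. The third of these sites held the members' best-ranked TBP peak, at rank 120 of 6285 by the authors' score. Another site shared by all lists, at 110573820 to 110573969, was annotated as 3′ UTR but lay 44.7 kb before the end of the RefSeq gene (110532500 to 110618633), so the 3′ UTR is not that of the full-length gene.

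Setdb1, an H3K9 methyltransferase that silences retroelements, had 2 control peaks and 3 with each compound. All 11 lay in exon 13 or exon 15 of 21, each with a site in all 4 lists (chromosome 3, 95338583 to 95338732 and 95327491 to 95327665, minus strand). In TIP, 2 of the 3 peaks fell within the exon 15 site, so TIP had no Setdb1 site that control lacked. The authors' nearest-gene column gives another gene for all 11. Setd5 had 4, 3, 4 and 3 peaks, with shared sites in exon 18 of 22, in the last exon and in the 3′ UTR. Setd1a and Setd1b, catalytic subunits of the COMPASS complexes that methylate H3K4, differed in pattern. Setd1a had 0, 2, 1 and 2 peaks, of which 4 lay in exon 14 of 19 (chromosome 7, 127795983 to 127796632), and Setd1b had 1, 2, 2 and 0. No site of either gene was called in more than 2 lists. Setd3 and Setd6, which methylate mainly non-histone proteins, each had 1 peak, in TCP.

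The CHD remodellers were the family with a peak in every list for each of its 7 marked genes. Control had 12 of their peaks, TBP 22, TCP 16 and TIP 10. Chd7 had 3, 3, 2 and 1 peaks, and its site in the last of 38 exons (chromosome 4, 8866374 to 8866573, plus strand) was called in all 4 lists, at rank 163 for control, 127 for TBP, 115 for TCP and 17 for TIP, a TIP rank tied over 301 peaks. Chd8 had 4, 4, 3 and 2 peaks, and was the only member with a 5′ UTR site in all 4 lists, at chromosome 14, 52237429 to 52237578, minus strand, annotated as 5′ UTR or first exon. Another Chd8 site, 52204874 to 52204948, had a peak on the opposite strand as well in control, TBP and TCP, where the annotation also has the gene Gm26590. Reads of the 2 strands cannot be told apart there from the lists.

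Chd4, the ATPase of the NuRD complex, had 1, 3, 4 and 2 peaks. Its 3′ UTR site at chromosome 6, 125130248 to 125130297, was in every list, while 4 further sites in internal exons were called in 1 or 2 lists. Chd9 had 1, 5, 3 and 1 peaks, with 1 shared site in exon 16 of 40. Chd1, Chd2 and Chd6 had 1 peak each in control and between 1 and 3 with the compounds. For Chd1 the TIP peak (chromosome 17, 15770240 to 15770289) lay just before the 3′ UTR site of the other lists (15770315 to 15770414), so that no single Chd1 site was in all 4.

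Among the bromodomain (Brd) genes, control had 5 peaks, TBP 13, TCP 14 and TIP 2. Brd1, a scaffold of histone acetyltransferase complexes, had 2, 4, 6 and 0 peaks. All 12 lay in internal exons, 10 of them in exon 2 of 13 over 1025 bp (chromosome 15, 88729473 to 88730497, minus strand). They seldom coincided: of 11 Brd1 sites, 1 was called in 2 lists and 10 in a single list. Among the BET proteins, which read acetylated histones at promoters and enhancers, Brd2 had 2, 4, 2 and 0 peaks. Brd3 had 1, 1, 2 and 1, with a 3′ UTR site in all lists at chromosome 2, 27448429 to 27448578. Brd8, a subunit of the TIP60 acetyltransferase complex, had 0, 1, 2 and 1, with the site in exon 13 of 22 common to the 3 compounds. Brd7 had 1 peak in TBP, 2346 bp long, and is not a member without peaks over 500 bp.

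The Baz genes encode accessory subunits of ISWI remodellers. Baz1b, the WSTF subunit, had 5, 8, 5 and 5 peaks. Of these 23 peaks, 16 lay in exon 7 of 19 over 1475 bp (chromosome 5, 135216729 to 135218203, plus strand) and 7 in the last exon. The site at 135218079 to 135218203 was called in TBP, TCP and TIP and not in control, and held the members' best-ranked peak in TCP, at rank 106 of 6981. In TIP it shared rank 17 with peaks of Setd2, Phf3, Chd7 and Chd8. Baz1a, the ACF1 subunit, had 0, 4, 3 and 1 peaks. They fell on 8 separate sites, none shared between lists, and 2 of them were wide: 20337 bp in TBP and the single TIP peak at 4442 bp. Without peaks over 500 bp Baz1a had no TIP peak. Baz2b had 1, 1, 1 and 0, at 1 site in exon 8 of 35, and Baz2a, a subunit of the nucleolar remodelling complex, had 1 in TCP.

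Only 4 Smarc genes held a peak. Smarcad1, a remodeller active at heterochromatin, had 2, 1, 3 and 1 peaks, all annotated as 3′ UTR. Its site in all lists (chromosome 6, 65074886 to 65074985) lay 41.1 kb before the end of the RefSeq gene. Smarcc2, a scaffold subunit of SWI/SNF, had 0, 1, 1 and 0, at 1 site. Smarcc1 had 1 peak in TCP, 2984 bp long, and Smarce1 had 1 in TIP.

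Among the PHD finger genes, Phf3, which binds the phosphorylated tail of RNA polymerase II, had 3, 4, 7 and 3 peaks. Of its 17 peaks, 10 lay in exon 4 of 16 over 650 bp (chromosome 1, 30830520 to 30831169, minus strand). Its 3′ UTR site at 30805089 to 30805213 was in all lists and gave the members' best-ranked control peak, at rank 118 of 4432. TCP alone had 3 further 3′ UTR sites, and exon 4 held 3 peaks in TBP and TCP and 2 in control and TIP. Phf12, a subunit of Sin3 deacetylase complexes, had 2, 2, 3 and 1 peaks, all in internal exons. Phf23 had 2, 1, 2 and 2. Phf20, a reader subunit of an acetyltransferase complex, had 3, 1, 1 and 1, and its relative Phf20l1 had 1, 2, 1 and 0. Of the 3 Phf20 control peaks, 2 fell within the 1 site that each compound list marked with a single peak. Phf6, whose protein is found in nucleoli, had 0, 2, 1 and 0, and Phf14 and Phf7 had 1 each in TCP.

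The ING proteins guide acetyltransferase and deacetylase complexes to trimethylated H3K4. Ing1 had 2, 1, 1 and 1 peaks, with a 3′ UTR site in all lists at chromosome 8, 11562290 to 11562414, plus strand. Ing2 had 1, 2, 0 and 0 and Ing3 had 1, 1, 0 and 0, which made them the 2 members lost with both TCP and TIP. The peaks of both ranked low: the best stood at 3291 in control and 3788 in TBP for Ing2, and at 2938 and 5377 for Ing3.

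Internal exons held more of the members' peaks than of other genes' peaks. Over the 4 lists, 140 of 296 member peaks, 47.3% (41.5 to 53.2), lay in internal exons, against 27.9% (27.3 to 28.5) of the peaks of other genes. The 3′ UTR share was 36.5% (31.0 to 42.3), against 49.6%, and the last-exon share 11.5% (8.09 to 15.7), against 14.9%. The internal-exon share was 39.0% for control, 49.5% for TBP, 46.2% for TCP and 55.6% for TIP, above that of the other genes (26.5%, 26.9%, 29.3% and 28.7%) in every list. Peaks of 1 transcript are not independent, so these intervals are too narrow. Without Setd2, Baz1b, Phf3 and Setd5, left out after the values were seen, the internal share was 41.0% (34.4 to 47.9). By gene, 27 of 52 members, 51.9% (37.6 to 66.0), had an internal-exon peak in some list, against 32.4% of other genes.

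The members' transcripts also had more exons. Peaks with a numbered exon lay in transcripts of 21 exons at the median, against 11 for other genes, and 92.0% of them lay in transcripts of at least 10 exons, against 54.9%. Among numbered-exon peaks of such transcripts the internal share was 85.1% (78.6 to 90.2) for members and 82.0% (80.9 to 83.0) for other genes. The number 10 was chosen after the values were seen. The median exon number over exon total of internal-exon peaks was 0.368 for members and 0.5 for other genes. Without Setd2, Baz1b, Phf3 and Setd5 together the members' median was 0.591. Leaving out 1 gene at a time gave 0.4 without Setd2, 0.374 without Baz1b and 0.368 without Phf3 or Setd5. Exon lengths were not analysed here.

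The position of the peaks was also counted by family, and differences between families were not tested. Internal exons held 26 of 35 Baz peaks (74.3%, 56.7 to 87.5), 43 of 62 Setd peaks (69.4%, 56.3 to 80.4) and 18 of 34 Brd peaks (52.9%, 35.1 to 70.2). Most Smarc peaks (10 of 11), Ing peaks (6 of 10) and Kdm peaks (20 of 36) were annotated as 3′ UTR. Single genes gave much of these counts. Baz1b held 16 of the internal-exon peaks of Baz, Setd2 20 of those of Setd and Brd1 12 of those of Brd. Smarcad1 held 7 of the 10 Smarc peaks in 3′ UTRs. Peaks of 1 transcript are not independent, so the family intervals are too narrow. The Chd family was spread most evenly, with 21 of 60 peaks in 3′ UTRs, 16 in internal exons, 14 in last exons and 5 in 5′ UTRs. A last exon is that of the transcript named, which can end well before the gene does. Of the last-exon peaks of Chd7, 2 lay in exon 2 of 2, while its other peaks were numbered on a transcript of 38 exons. The 3 last-exon peaks of Setd1b lay in exon 6 of 6, and its others on a transcript of 17 exons. The 9 member peaks in 5′ UTRs came from Chd8, Chd9, Kdm2a and Brd2. Of the 108 peaks annotated as 3′ UTR, 15 (13.9%, in Setd2, Smarcad1, Kdm7a, Chd9, Kdm5c and Phf20l1) lay over 5 kb before the end of the RefSeq gene, against 13.4% for other genes.

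**Figure D3:**
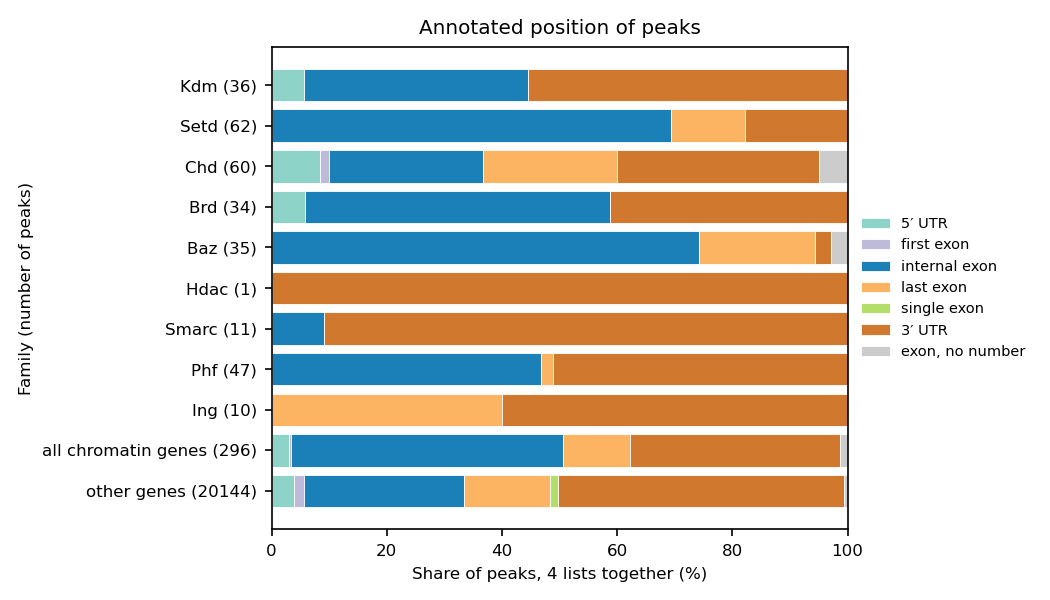
Share of peaks (%) by annotated position, for each family, for all 52 chromatin genes and for all other genes, over the 4 lists, with the number of peaks in brackets. Internal exons hold 74.3% of Baz and 69.4% of Setd peaks, and 27.9% of the peaks of other genes.

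Peaks of a gene that overlapped by at least 1 bp were joined into sites over the 4 lists. Joining ran through chains of overlap, so the peaks of 1 site need not all overlap each other. Control and TIP did not overlap at the 3′ UTR sites of Kdm4b and Chd8, for example. A site can also hold 2 peaks of 1 list. The members had 160 sites, of which 26, 16.2% (10.9 to 22.9), were called in all 4 lists and 95, 59.4% (51.3 to 67.1), in a single list. Other genes had 10.5% (9.94 to 11.1) and 60.6%. Of the 19 members with a peak in every list, 18 had at least 1 site common to all 4. Chd1 was the exception. The Setd family held 9 of the 26 common sites (in Setd2, Setd5 and Setdb1), and the Chd family 7. Of the members' 57 control sites, TBP kept 41, 71.9% (58.5 to 83.0), TCP kept 38, 66.7% (52.9 to 78.6), and TIP 30, 52.6% (39.0 to 66.0). The other genes' control sites were kept at 59.8%, 59.3% and 39.0%. In turn, 57 of 98 TBP sites, 54 of 92 TCP sites and 14 of 44 TIP sites were not in control. For TIP that share, 31.8% (18.6 to 47.6), stood beside 42.6% for other genes.

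**Figure D4:**
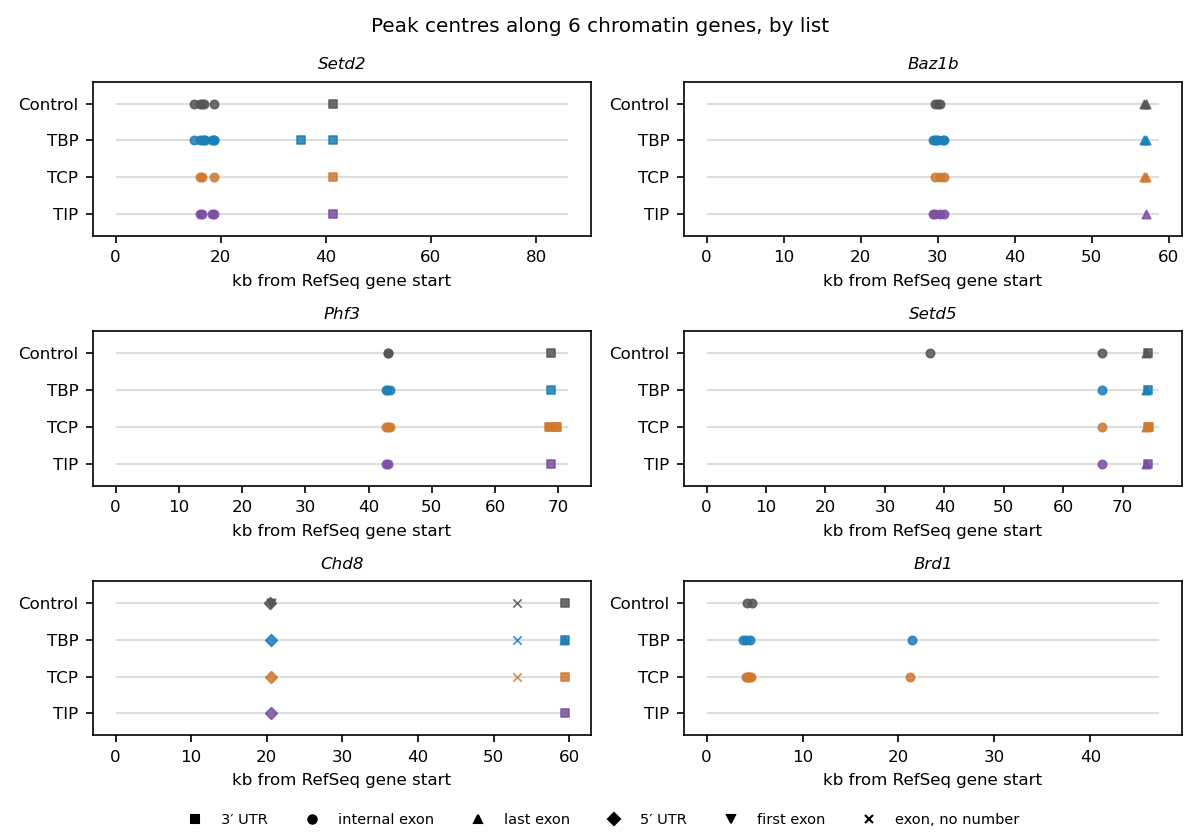
Centres of peaks along Setd2, Baz1b, Phf3, Setd5, Chd8 and Brd1, in kb from the start of the RefSeq gene (x axis), in the control, TBP, TCP and TIP lists (rows); marker shape gives the annotated position and grey lines span the gene. Setd2 peaks gather in exon 3 in every list, and Brd1 has none in TIP.

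By the authors' score, member peaks stood near the middle of their lists, little apart from all peaks. Between 54.2% and 58.1% of member peaks were at or above the median score of their list, where ties put 51.5% to 54.4% of all peaks there. No interval was computed for these shares. The best 10% of each list held 3 of the 59 control peaks of members, 10 of 99 with TBP, 15 of 93 with TCP and 8 of 45 with TIP. The 8 TIP peaks all shared rank 17, tied over 301 of the 3034 TIP peaks, so the TIP count rests on a single score value. As shares these ran from 5.08% (1.06 to 14.1) for control up to 17.8% (8.0 to 32.1) for TIP. The value of 10% lay inside the interval of every list. As the score's scale is not stated, these ranks describe each list and show no change between them.

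Other genes of the same complexes and enzyme classes were counted in the same way. Of 118 partner genes, 62 were marked, beside 19.3% of all protein-coding genes. Control marked 47 of the 62, TBP 46, TCP 49 and TIP 30, beside 57.4%, 72.5%, 78.8% and 41.5% of all genes with a peak. In all 4 lists 24 of the 62 were marked, beside 29.7% of all genes with a peak. With TBP 10 of the 62 were gained and 11 lost (16.1% and 17.7%), with TCP 10 and 8 (16.1% and 12.9%), and with TIP 2 and 19 (3.23% and 30.6%), beside the shares of all genes given above. The most heavily marked was Ash1l, an H3K36 methyltransferase, with 9, 14, 11 and 11 peaks. Srcap, the ATPase that deposits the histone variant H2A.Z, had 4, 13, 12 and 2, and Bptf, the reader subunit of the NURF remodeller, had 6, 8, 6 and 3. Kat6a, an acetyltransferase that works with Brpf1 and the ING proteins, had 6, 7, 11 and 5, and the acetyltransferase Ep300 had 4, 4, 4 and 1, beside 1, 2, 7 and 2 for its paralog Crebbp. Nsd2, an H3K36 methyltransferase, had 3, 3, 5 and 2. Among other demethylase genes, Jmjd1c had 6, 7, 5 and 2 and Riox1 2, 1, 4 and 3. Of the co-repressor genes that bind deacetylases, 16 of 27 held a peak, led by Ncor1 (2, 4, 4 and 1) and Sin3a (3, 2, 4 and 1), beside the 1 of 11 deacetylase genes. Of 7 sirtuins, the NAD-dependent deacetylases, only Sirt1 had a peak (2, 1, 2 and 2). In the SWI/SNF group 5 of 16 genes held a peak, with Pbrm1 at 4, 3, 2 and 0, Bicral at 1, 2, 1 and 0 and Ss18 at 1 in every list. Bcl7b was the partner gene gained with all 3 compounds, at 0, 1, 1 and 1. Ino80c, Mier2 and Kat7, each with 1 control peak, and Actb with 2, had none with any compound.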

How the data were processed

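Data were the authors' deposited peak lists of 4 immunoprecipitated libraries, 1 per condition, with position, strand, annotation class, nearest gene, width in bp and a score per peak. In the submitters' processing notes, with roles unstated, are deepTools 3.5.0, HOMER 4.11, ChIPseeker 1.26, SAMtools 1.9, Picard 2.23.5, FastQC 0.11.9, DESeq2 1.30.1, StringTie 2.1.4, HISAT2 2.1.0 and Trim Galore 0.6.5, beside builds GRCm38 (mm10). Which caller, cutoff and input handling made the peaks was not given in the sources used here. The authors' deposited score has no stated scale and was used for ranks within a list. Read depth is not in the lists.

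Each peak was placed in a gene on its strand: from its exon annotation, else the nearest gene if it held the peak, else a single RefSeq gene (GRCm38.p6) over it. This placed 98.6% of peaks. For 20.3% of member peaks the nearest-gene column names another gene. Python 3.11.15, pandas 2.3.3 and SciPy 1.17.1 were used, and the joining of peaks was tested on simulated data. A single member, included in all counts, is not reported here by name. The members and lists were chosen with earlier results of these data known. Named genes were the 3 most marked members per family, those gained or lost with 2 or more compounds, those gained with TIP and the best-ranked control member per family, with the 2 most marked partner genes per group and those gained or lost with all 3 compounds; others were added after their values were seen. Alternatives were the score median, equal list length (ties drawn once at random), the nearest-gene column, no peaks over 500 bp and a 50% overlap.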

Additional observations from a re-analysis of the deposited data

Results flagged for a closer look

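Several counts moved in opposite directions from control with different compounds. None of these differences was tested, as each list is 1 library, and the lists also differ in length. The control list marked 31 members, TBP 41, TCP 45 and TIP 25, a spread of 20 between the compounds, and their peaks numbered 59, 99, 93 and 45, a spread of 54. At equal list length TIP was no longer below control in either count. By family, the spread between the highest and the lowest compound was 9 peaks for Kdm (6, 13, 13 and 4 in control, TBP, TCP and TIP), 12 for Chd (12, 22, 16 and 10), 12 for Brd (5, 13, 14 and 2) and 10 for Phf (11, 12, 17 and 7).

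By gene, Brd1 (2, 4, 6 and 0) and Setd2 (6, 10, 4 and 5) each had a spread of 6 peaks. At equal list length Brd1 had no peak in any list, and Setd2 had 4, 7, 4 and 5, with neither TCP nor TIP below control. Brd2 (2, 4, 2 and 0) and Kdm2a (1, 4, 2 and 0) had a spread of 4, and Kdm3b (1, 0, 3 and 2), with TBP below control, had 3. Ing2 (1, 2, 0 and 0), Kdm5a (1, 2, 2 and 0), Phf12 (2, 2, 3 and 1) and Smarcad1 (2, 1, 3 and 1) had a spread of 2. At equal list length Kdm2a had 1, 1, 0 and 0, Kdm5a 0, 1, 0 and 0, Brd2 1, 2, 1 and 0, Kdm3b 0, 0, 2 and 2, Phf12 1, 2, 1 and 1, Smarcad1 2, 1, 1 and 1, and Ing2 no peak in any list.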

How the results depend on the processing

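Of the 52 members, 39 were left when each list was limited to scores from its median up, 37 at equal list length, 49 without peaks over 500 bp, and 48 by the authors' nearest-gene column, of which 44 were shared. With the score median, control marked 18 members, with 32 peaks there, 56 in TBP, 54 in TCP and 25 in TIP. Members lost were 2 with TBP, 1 with TCP and 6 with TIP. The difference to control was then 24 peaks for TBP and 22 for TCP, and −1 gene and −7 peaks for TIP. At equal list length TBP had 27 members with 49 peaks and TCP 28 with 45, differences to control of 4 genes and 8 peaks, and of 5 genes and 4 peaks. For TIP the difference reversed, to 2 genes and 4 peaks above control. Members gained were then 6 with TBP and 9 with TCP, members lost 2 with TBP and 4 with TIP, and sites in 1 list made up 44.9% and those in 4 lists 26.9%. Both settings keep fewer peaks by construction. Of the 11 members gained with TBP, 4 were still so at equal length, 6 with the score median, 6 by the nearest-gene column and 10 without wide peaks. Of 17 gained with TCP these were 7, 8, 12 and 15, of 4 gained with TIP 4, 2, 3 and 3, of 3 lost with TCP 1, 0, 2 and 3, and of 10 lost with TIP 4, 2, 9 and 10. The nearest-gene column and leaving out wide peaks kept the summary counts within 1.5 times and the shares inside their intervals, and the 50% overlap, which bears on sites, did so for the sites in 1 and in 4 lists. The internal-exon share was 41.0% without Setd2, Baz1b, Phf3 and Setd5, a choice made after seeing the data. No member turned from gained to lost or back under any alternative. No paired analysis was possible because each condition has 1 library. The lists give no depth, so a missing peak cannot be told apart from shallow sequencing.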
